A study of Mus musculus with 39 samples.

Results

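The 37 genes described here encode chaperones of the endoplasmic reticulum (ER) and of the cytosol, together with the factors that switch them on. They were taken from a list of gene symbols of the unfolded protein response (UPR) and the heat shock response, by a rule that uses no measured value, although the list was drawn up with earlier results of these data known. All 37 were found among the 25239 genes in the table of N2a cells and among the 25241 genes in the table of the tdTomato line. N2a is a mouse neuroblastoma cell line, and RfxCas13d is an RNA-guided ribonuclease that a CRISPR RNA (crRNA) directs to a transcript. The study set crRNAs against a non-targeting (NT) crRNA to find out what happens to transcripts other than the target. Plasmids for RfxCas13d and 1 crRNA were transfected, and poly(A) RNA was sequenced 48 h later, in 39 libraries that form 13 groups of 3. Every group carried RfxCas13d, the NT groups included, so cells without the nuclease were not compared here.

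In N2a cells of genotype WT, 7 crRNAs were set against the same 3 NT libraries. These were Sik3 crRNAs 1 and 8 (labelled Sik3-SI), Map2 crRNAs 1 and 3, Mapt crRNAs 4 and 6 and Rbfox3 crRNA 3, and these groups and their NT libraries are called the WT set. Rbfox3 crRNA 5 was set against 3 other NT libraries of the same cells, whose library names carry an N, and both groups are called the N set. In N2a cells that stably express tdTomato, tdTomato crRNAs 4 and 7 were set against 3 NT libraries of that line. The tdTomato line was made by lentivirus, drug selection and limiting dilution, so it may stand for 1 clone. Nothing states that the 3 libraries of a group came from separate cultures, so p-values measure only the spread between libraries, which may be technical. Each library pools many cells, so fewer cells in a given state and less RNA per cell cannot be told apart.

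The UPR keeps the folding capacity of the ER matched to its load. The sensors IRE1 (encoded by Ern1), ATF6 and PERK sit in the ER membrane and are held in check by the chaperone BiP (Hspa5) until unfolded proteins accumulate. IRE1 then splices Xbp1 mRNA to encode an active transcription factor, and ATF6 is cut free to enter the nucleus, and both raise transcription of ER chaperones and of the machinery that sends misfolded proteins to the proteasome. In the cytosol the heat shock response does the same work through HSF1, which is held by HSP70 and HSP90 and, once released, drives HSP70, HSP90 and their co-chaperones. Values per gene cannot separate spliced from unspliced Xbp1 mRNA, and they say nothing of the activity of HSF1 or the sensors.

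The promoters of some members carry the sequence elements through which these factors act, and 6 of those are shown because their genes lead the results below. RefSeq windows of 300 bases (250 before and 50 after the transcription start, build GRCm38.p6) matched 30 of the 37 members, and those of Atf6, Hsf1, Hsp90aa1, Hsp90ab1, Hspa8, Hyou1 and Manf were not matched. The ER stress element (ERSE) was searched on both strands as CCAAT and CCACG with 9 bases of any kind between them. It was found in 8 of the 30 member genes, against 0.137% of all 27025 genes with a window. The 8 members were Hspa5, Hsp90b1, Dnajc3, Creld2, Pdia6, Calr, Canx and Syvn1. The shorter element ERSE-II, ATTGG and CCACG with 1 base between them, was found in Dnajb11 and Herpud1 and in 0.0444% of all genes with a window. A heat shock element was searched as 3 alternating units of GAA and TTC with 2 bases between units. It was found in Hsph1, Chordc1, Hspd1 and Hspe1 and in 0.662% of all genes with a window. The members were listed as genes of these responses, so a higher share of the elements among them is not a separate result. Capitals mark the ERSE in Hspa5, Pdia6 and Calr, ERSE-II in Dnajb11 and Herpud1, and the overlapping heat shock elements in Chordc1. The windows lie at chr2:34771840-34772139 (plus strand, Hspa5), chr12:17266339-17266638 (plus, Pdia6), chr8:84846882-84847181 (minus, Calr), chr16:22857595-22857894 (plus, Dnajb11), chr8:94386179-94386478 (plus, Herpud1) and chr9:18292017-18292316 (plus, Chordc1).
Hspa5: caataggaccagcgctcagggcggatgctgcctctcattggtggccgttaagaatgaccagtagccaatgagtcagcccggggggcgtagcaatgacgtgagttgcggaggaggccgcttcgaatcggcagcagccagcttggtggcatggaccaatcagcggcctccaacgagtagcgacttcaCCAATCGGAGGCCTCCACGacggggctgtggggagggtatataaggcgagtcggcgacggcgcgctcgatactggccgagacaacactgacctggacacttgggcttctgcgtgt
Pdia6: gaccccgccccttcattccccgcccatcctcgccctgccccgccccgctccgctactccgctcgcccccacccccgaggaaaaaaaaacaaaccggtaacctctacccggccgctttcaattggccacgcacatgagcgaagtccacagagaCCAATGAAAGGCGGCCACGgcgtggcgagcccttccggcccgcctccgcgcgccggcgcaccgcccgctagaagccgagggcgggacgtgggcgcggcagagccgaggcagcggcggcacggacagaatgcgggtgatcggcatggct
Calr: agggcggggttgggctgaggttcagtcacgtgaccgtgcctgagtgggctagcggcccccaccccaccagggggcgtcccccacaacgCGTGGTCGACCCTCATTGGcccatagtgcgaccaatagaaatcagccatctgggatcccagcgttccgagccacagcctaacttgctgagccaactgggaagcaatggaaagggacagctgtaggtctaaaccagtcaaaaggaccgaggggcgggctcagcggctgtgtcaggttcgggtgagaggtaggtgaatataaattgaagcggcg
Dnajb11: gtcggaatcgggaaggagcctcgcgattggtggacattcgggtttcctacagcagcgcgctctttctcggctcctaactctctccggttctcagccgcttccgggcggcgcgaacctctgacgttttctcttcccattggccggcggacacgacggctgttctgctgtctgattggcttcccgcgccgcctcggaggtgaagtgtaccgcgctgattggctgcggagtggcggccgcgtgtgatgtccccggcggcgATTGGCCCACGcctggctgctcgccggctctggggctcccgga
Herpud1: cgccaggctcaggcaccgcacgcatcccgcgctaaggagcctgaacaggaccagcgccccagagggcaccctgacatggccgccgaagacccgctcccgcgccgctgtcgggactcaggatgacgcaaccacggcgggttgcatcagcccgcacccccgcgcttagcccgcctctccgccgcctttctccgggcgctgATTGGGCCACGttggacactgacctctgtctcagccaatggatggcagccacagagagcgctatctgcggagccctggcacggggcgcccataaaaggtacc
Chordc1: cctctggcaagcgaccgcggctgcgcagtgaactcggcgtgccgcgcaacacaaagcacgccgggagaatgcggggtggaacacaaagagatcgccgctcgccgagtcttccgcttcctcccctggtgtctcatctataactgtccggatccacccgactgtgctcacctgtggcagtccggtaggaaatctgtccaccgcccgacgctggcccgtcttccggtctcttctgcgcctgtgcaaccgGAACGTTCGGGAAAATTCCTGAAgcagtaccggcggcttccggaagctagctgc
The Calr element reads CCAAT to CCACG on the strand opposite to the gene. A match is a description of these letters and not a measured binding site. Genes with the same element could be called in opposite directions in 1 comparison. With Map2 crRNA 1, Hspa5 rose and Calr fell, and Herpud1 rose and Dnajb11 fell.

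Expression was deposited as FPKM (fragments per kilobase of transcript, scaled to the mapped fragments of the library), with no counts. The smallest steps between low values gave an estimated 10405722 to 16874763 reads per library in WT cells and 2199738 to 4300019 in the tdTomato line. Of 14 neuroblastoma and sympathoadrenal markers, 12 averaged at least 1 FPKM in each table, and Th was among those that did not. Of 13 markers of other cell types, 3 reached 1 FPKM in WT cells, and 4 did so in the tdTomato line. The targeted transcripts were lower in every group whose target is expressed: Sik3 was at 2.18 ± 0.260 FPKM with crRNA 1 and 1.23 ± 0.279 with crRNA 8, against 7.98 ± 0.921 with NT (SD, n = 3 each), and tdTomato was at 154 ± 12.6 and 138 ± 15.4 FPKM with crRNAs 4 and 7, against 942 ± 116 with NT. Rbfox3 was near 0 in every group, at 0.0697 ± 0.0579 FPKM with crRNA 3 against 0.0103 ± 0.00896 with NT, so no knockdown could be read for its 2 crRNAs. Differences were tested with limma on log2(FPKM + 0.5) over all genes with a mean of at least 1 FPKM, with library series as a term and Benjamini-Hochberg adjustment over all of them, and "rose" and "fell" below mean an adjusted p under 0.05. Fold changes are log2 values on that scale throughout.

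Several members were abundant. In WT cells the mean over 30 libraries was 2519 FPKM for Hsp90ab1, the constitutive cytosolic HSP90, 742 for Hspa5, 734 for Hsp90b1 (GRP94, the HSP90 of the ER) and 685 for Calr (calreticulin, an ER lectin chaperone). At the low end of the genes that passed the filter were Ern1 at 11.9, Dnaja1 at 12.5, Syvn1 at 12.6 and Sel1l at 13.2 FPKM. The inducible HSP70 genes Hspa1a and Hspa1b and the small heat shock gene Hspb1 did not pass it in WT cells: Hspa1a lay between 0 and 0.383 FPKM over the 30 libraries, Hspa1b between 0 and 0.137 and Hspb1 between 0 and 0.870. Hspa1a and Hspa1b are near-identical copies whose reads the counting could split, so the values of both are uncertain. Hence 34 members were tested in WT cells. In the tdTomato line 35 were tested, since Hspa1a was listed there at 6.18 to 11.4 FPKM; the tables were normalized separately and levels were not tested between them.

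Hspa5, whose product BiP is the ER HSP70, had the widest spread of levels among the 7 crRNAs of the WT set. It was at 942, 921 and 960 FPKM with Sik3 crRNA 1 and at 976, 963 and 1034 with Map2 crRNA 1, against 661, 623 and 673 with NT. All 6 of these crRNA libraries lay above all 3 NT libraries. The fold change was 0.53 ± 0.034 (SE, limma adjusted p = 2.83e-11) for Sik3 crRNA 1 and 0.60 ± 0.034 (limma adjusted p = 1.2e-12) for Map2 crRNA 1. Sik3 crRNA 8 (872, 863 and 907 FPKM) and Mapt crRNA 4 (799, 816 and 857 FPKM) also lay wholly above NT, with fold changes of 0.43 and 0.34 (limma adjusted p = 7.05e-10 and 5.86e-08). It rose less with Map2 crRNA 3, at 710, 714 and 779 FPKM, with a fold change of 0.17. With Mapt crRNA 6 (635, 626 and 652 FPKM) and Rbfox3 crRNA 3 (623, 621 and 641 FPKM) the libraries overlapped those with NT, and neither passed the test. So Hspa5 rose with 5 of 7 crRNAs.

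**Figure D1:**
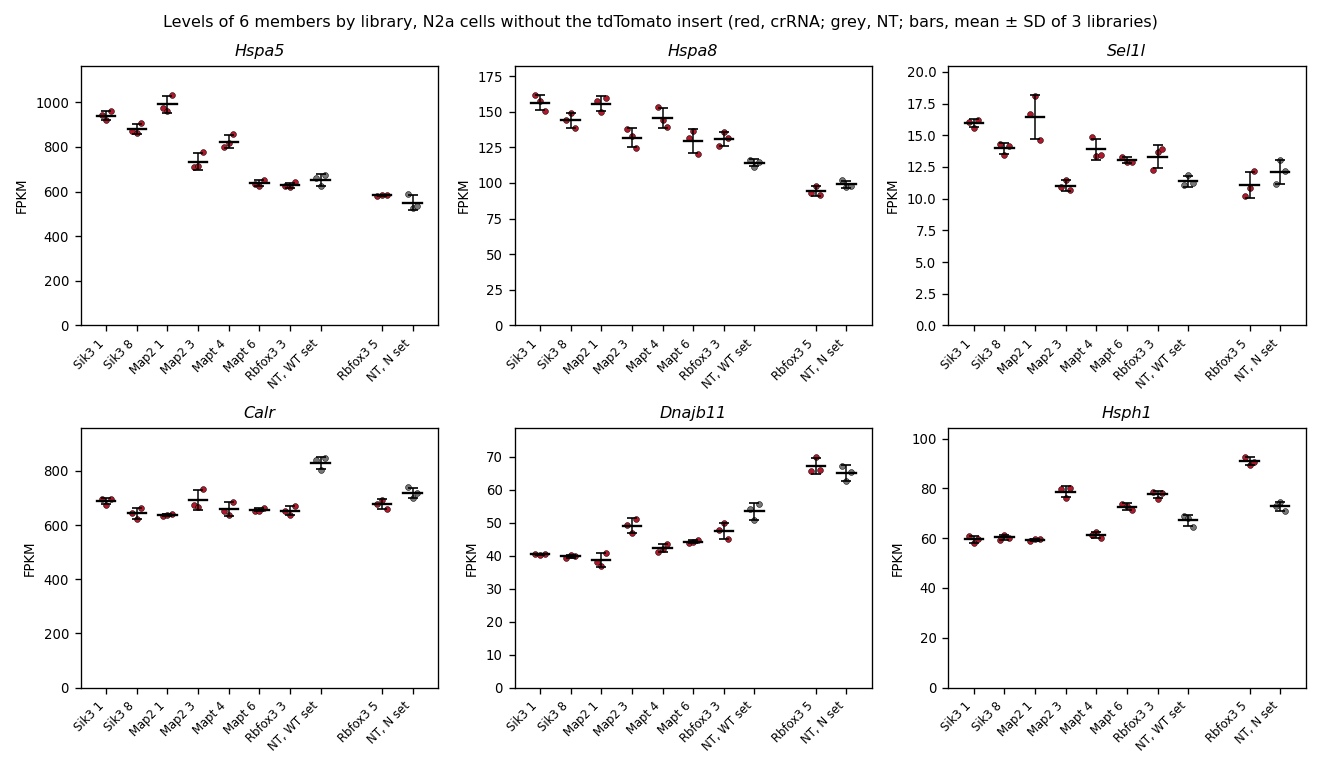
FPKM of 6 members in each library of N2a cells of genotype WT (points; red, crRNA; grey, NT), with the mean and SD of the 3 libraries of a group as bars; the vertical axes start at 0, and Rbfox3 5 with its own NT stands apart at the right. Hspa5 runs between 621 and 1034 FPKM over the 21 crRNA libraries of the WT set, Hspa8 lies above its NT libraries in all 21, and Calr lies below them in all 21.

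Over the whole list, more members rose than fell with each of the 7 crRNAs, by fold changes between -0.47 and 0.60. With Sik3 crRNA 1, 14 of the 34 members tested rose and 9 fell, where 23.6% of all 11554 genes tested rose and 21.1% fell. With Sik3 crRNA 8, 11 rose and 6 fell (21.7% and 21.2% of all genes). With Map2 crRNA 1, 15 rose and 7 fell (25.8% and 23.9%), and with Map2 crRNA 3, 11 rose and 5 fell (19.8% and 13.4%). With Mapt crRNA 4, 10 rose and 7 fell (21.8% and 16.7%), and with Mapt crRNA 6, 8 rose and 5 fell (22.2% and 14.6%). With Rbfox3 crRNA 3, 9 rose and 7 fell (19.1% and 13.4%). Many genes passed in these comparisons. The members' share of risers was above that of all genes with most crRNAs, most plainly with Sik3 crRNA 1 and Map2 crRNA 1. Their share of fallers was below that of all genes with Sik3 crRNA 8 and Map2 crRNA 1. With Mapt crRNA 6 both shares were near those of all genes. No test of the list itself was made. With some crRNAs the excess of risers over fallers depended on scaling. With FPKM rescaled by median ratios the split became 12 and 10 for Sik3 crRNA 1 and 10 and 7 for Map2 crRNA 1. It stayed at 11 and 6 for Sik3 crRNA 8 and was 10 and 6 for Map2 crRNA 3. It became 7 and 8 for Mapt crRNA 4, 4 and 7 for Mapt crRNA 6 and 4 and 10 for Rbfox3 crRNA 3. With the trend in gene length removed the split was 13 and 9 for Sik3 crRNA 1 and 13 and 7 for Map2 crRNA 1. It was 13 and 5 for Mapt crRNA 4 and 11 and 5 for Rbfox3 crRNA 3. For Sik3 crRNA 8 it was 13 and 6, for Map2 crRNA 3 13 and 5 and for Mapt crRNA 6 10 and 4. No share of all genes is given for the splits under either scaling, so they do not show whether the members still differed from all genes. The median fold change of the members was 0.070 for Sik3 crRNA 1, against 0.023 for all genes tested, and -0.0094 for Mapt crRNA 6, against 0.048. Without its replicate 3, Mapt crRNA 4 had 11 members called in place of 17, and without NT replicate 6, Rbfox3 crRNA 3 had 10 in place of 16. Rescaling turned no called member to the opposite direction: over all members and comparisons, 550 values kept their call or lack of one, 38 lost it and 28 gained it.

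**Figure D2:**
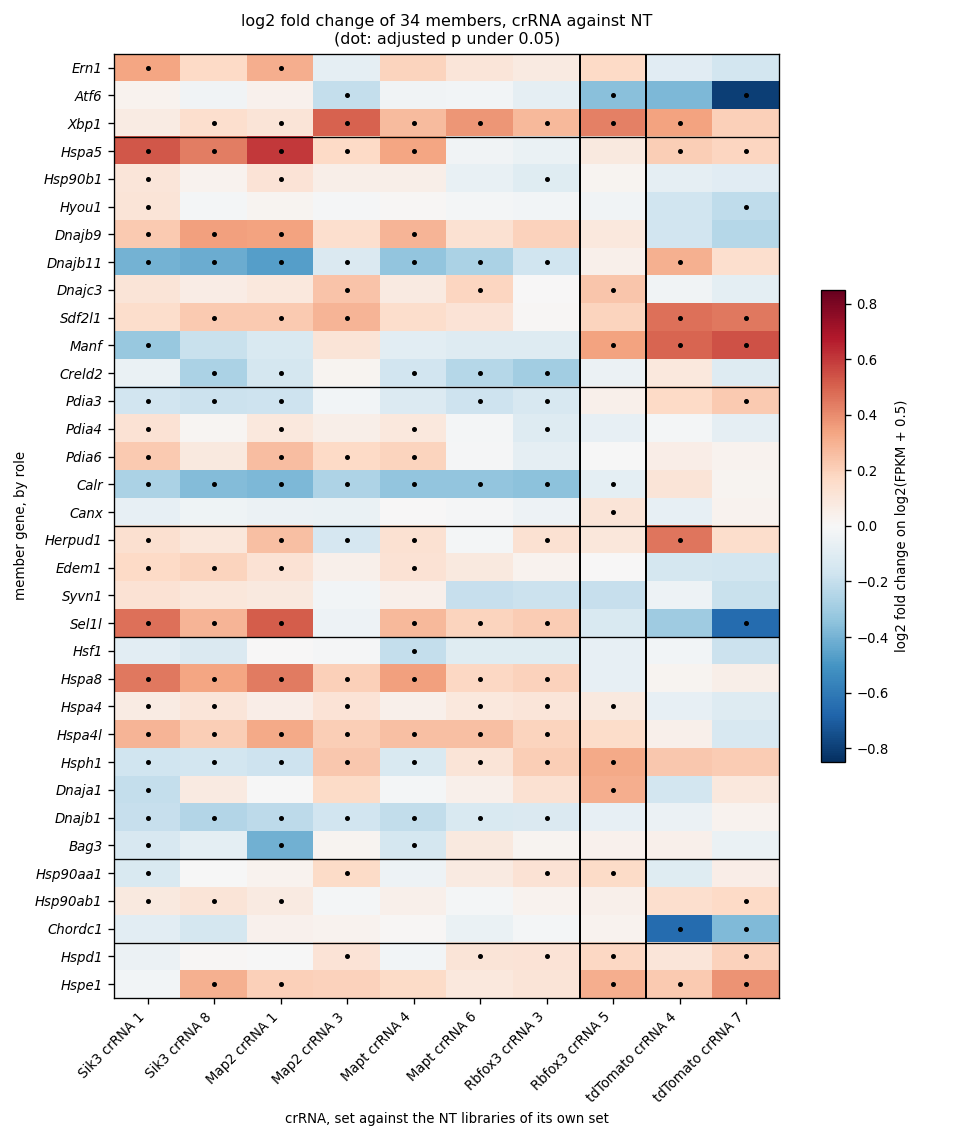
Log2 fold change (colour; red, higher with the crRNA; blue, lower) of the 34 members that passed the filter in both tables, for each of the 10 crRNAs against the NT libraries of its own set; a dot marks an adjusted p under 0.05, and lines divide the members by role and the crRNAs by set. Calr, Dnajb11 and Dnajb1 are blue in the first 7 columns and Hspa8 and Hspa4l are red, while Hsph1 is blue in 4 of them and red in 3.

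These 7 comparisons share their 3 NT libraries, so a member that stood apart in those libraries would be called in all 7 at once. Of the 34 members, 2 rose with all 7 crRNAs (Hspa8 and Hspa4l), 3 fell with all 7 (Calr, Dnajb11 and Dnajb1) and 5 were called in both directions (Hsp90b1, Pdia4, Herpud1, Hsph1 and Hsp90aa1). Of all genes tested, 6.70% rose with all 7, 6.66% fell with all 7 and 2.97% were called in both directions. Hspa4l rose with 6 after rescaling. Canx, Syvn1 and Chordc1 were called with none. In the mean of the 7 crRNAs against NT, 13 members rose and 5 fell, where 28.2% of all genes rose and 21.7% fell, and with rescaled FPKM the split was 8 and 7. The median fold change was 0.032 for the members and 0.032 for all genes tested.

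Among the sensors and transcription factors, Xbp1 was called most often. It rose with 6 of the 7 crRNAs, and with 5 after rescaling. The largest difference was with Map2 crRNA 3, where it was at 61.2, 61.3 and 66.1 FPKM, against 45.7, 44.5 and 42.4 with NT. The groups did not overlap, and the fold change was 0.50 ± 0.046 (limma adjusted p = 2.07e-08). With Sik3 crRNA 1, the exception, it was at 48.0, 44.1 and 47.2 FPKM and overlapped NT. Ern1 rose with Sik3 crRNA 1 and Map2 crRNA 1, at means of 14.5 ± 0.480 and 14.2 ± 1.00 FPKM against 11.3 ± 0.649 with NT. Atf6 fell with 1 crRNA, Map2 crRNA 3, to 19.0 ± 1.63 FPKM against 21.9 ± 1.39. The crRNA with the highest Xbp1 was therefore not among those with the highest Hspa5: Map2 crRNA 3 had the highest mean of Xbp1 and Map2 crRNA 1 the highest mean of Hspa5.

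The co-factors of BiP went both ways. Dnajb11 (ERdj3), which brings unfolded substrates to BiP, was at 38.1, 36.8 and 40.8 FPKM with Map2 crRNA 1, against 54.1, 50.6 and 55.6 with NT. The groups were well apart, and the fold change was -0.47 ± 0.043 (limma adjusted p = 6.27e-09). It fell with every crRNA of the WT set, by 0.12 on the log2 scale with Map2 crRNA 3 and by 0.17 with Rbfox3 crRNA 3 at the small end. Over the 21 crRNA libraries Dnajb11 had a lowest, median and highest level of 36.8, 42.1 and 51.2 FPKM, so that 1 library, of Map2 crRNA 3, lay within the NT range of 50.6 to 55.6. Dnajb9 (ERdj4), which helps BiP to repress IRE1, rose with 4 crRNAs. With Sik3 crRNA 8 it was at 26.4, 26.6 and 25.6 FPKM, against 20.7, 20.9 and 19.9 with NT, all higher, with a fold change of 0.35 ± 0.080 (limma adjusted p = 0.00121). Its library from Sik3 crRNA 1 replicate 3, at 19.6 FPKM, stood apart from the 26.5 and 26.5 FPKM of the other replicates. Manf, a secreted ER-resident protein that binds BiP, was also low in that library: 256, 258 and 190 FPKM with Sik3 crRNA 1, against 292, 285 and 296 with NT. All 3 lay below NT, and the fold change was -0.32 ± 0.082 (limma adjusted p = 0.00251), but -0.16 without replicate 3, which still passed. Sdf2l1 and Dnajc3 (p58IPK), a partner and a co-chaperone of BiP, rose with 3 and 2 crRNAs, Hyou1, its nucleotide exchange factor, with 1. Creld2 fell with 5, for example to 52.2, 52.3 and 50.3 FPKM with Rbfox3 crRNA 3, against 67.1, 62.2 and 60.6 with NT, with a fold change of -0.29 ± 0.063 (limma adjusted p = 0.000971). Hsp90b1 stayed within a narrow band, with group means between 687 and 797 FPKM across the 7 crRNAs.

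Of the disulfide isomerases and lectin chaperones, Calr showed the most uniform difference. It was at 622, 654 and 734 FPKM (lowest, median and highest) over the 21 crRNA libraries, against 839, 803 and 846 with NT. All crRNA libraries lay below the NT range, which was so for 7.64% of all genes. The fold changes lay between -0.26 (Map2 crRNA 3, limma adjusted p = 7.46e-07) and -0.38 (Map2 crRNA 1, limma adjusted p = 7.37e-10), and the mean over the 7 was -0.33 ± 0.023 (limma adjusted p = 9.31e-11). The NT libraries of the N set, with the same crRNA and cells, held 739, 699 and 716 FPKM of Calr, all below the NT libraries of the WT set, with 1 of them above the crRNA range and the others within it. With all 6 NT libraries as the control, the mean fold change of Calr was -0.22. Canx (calnexin), the membrane-bound partner of calreticulin, did not pass with any of the 7, but fell with 3 after rescaling. Pdia3, the isomerase that works with both lectins, fell with 5, and Pdia6, an isomerase that acts on the UPR sensors, rose with 4. After rescaling Pdia3 fell with 6, and Pdia6 rose with 4 and fell with 1. With Map2 crRNA 1, Pdia6 averaged 276 ± 8.66 FPKM against 231 ± 9.53 with NT. Both Calr and Pdia6 hold the ERSE shown above.

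In ER-associated degradation, which extracts misfolded proteins for the proteasome, Sel1l, Edem1, Herpud1 and Syvn1 were measured, and their calls depended in part on scaling. Sel1l, the scaffold of the HRD1 ubiquitin ligase complex, was at 16.7, 18.1 and 14.6 FPKM with Map2 crRNA 1, against 11.1, 11.8 and 11.2 with NT. All 3 were higher, and the fold change was 0.51 ± 0.071 (limma adjusted p = 2.38e-06). It rose with 6 of 7 crRNAs, with Map2 crRNA 3 as the exception (10.9, 11.5 and 10.7 FPKM), and with 5 after rescaling. Its rise with Mapt crRNA 6 (0.19) and Rbfox3 crRNA 3 (0.22) no longer passed in 5 and 4 of the fits that leave out 1 library. Edem1, which hands misfolded glycoproteins over, rose with 4, at means of 25.2 to 26.4 FPKM against 23.1 ± 0.730 with NT, and with 2 after rescaling. Herpud1, an adaptor of the same complex, rose with 4 and fell with Map2 crRNA 3, where it was at 49.1, 47.0 and 49.6 FPKM, against 55.8, 53.5 and 52.0 with NT, with a fold change of -0.14 (limma adjusted p = 0.0112). After rescaling it rose with 2 and fell with 1. Syvn1, the ligase itself, passed with none, but fell with 2 after rescaling.

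In the cytosol, Hspa8 (HSC70), the constitutive HSP70, rose with all 7. It was at 121, 139 and 162 FPKM (lowest, median and highest) over the 21 crRNA libraries, against 116, 111 and 115 with NT. Every crRNA library lay above every NT library, which was so for 7.50% of all genes. The mean fold change was 0.31 ± 0.033 (limma adjusted p = 5.18e-08), with 0.45 for Sik3 crRNA 1 at the top and 0.18 for Mapt crRNA 6 at the bottom. Hspa4l, a nucleotide exchange factor for HSP70, had a lowest, median and highest level of 39.0, 46.9 and 52.0 FPKM, against 39.0, 41.4 and 37.1 with NT. The ranges overlapped at the lower end, although each crRNA passed the test. Dnajb1 (HSP40), the J-domain partner of HSP70 and a standard heat shock gene, went the other way: 30.5, 33.0 and 36.4 FPKM over the 21 crRNA libraries, against 36.8, 39.0 and 36.6 with NT. It was lower in all 21, as were 7.64% of all genes, with a mean fold change of -0.18 ± 0.033 (limma adjusted p = 6.5e-05). The inducible HSP70 gene Hspa1a was listed at no more than 0.383 FPKM in any WT library. Hsf1 itself fell with 1 crRNA, Mapt crRNA 4, and Hspa4 rose with 5 by at most 0.12 on the log2 scale, but with 2 after rescaling.

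Hsph1 (HSP110), another exchange factor of HSP70, and Bag3, which links HSP70 to autophagy, separated the crRNAs from each other. Hsph1 was at 79.9, 76.1 and 80.1 FPKM with Map2 crRNA 3 and at 58.8, 59.6 and 59.5 with Map2 crRNA 1, against 68.8, 67.9 and 64.7 with NT. These were the highest and the lowest group means of the WT set, on either side of NT. It rose with Rbfox3 crRNA 3, Map2 crRNA 3 and Mapt crRNA 6 and fell with the other 4, and after rescaling it rose with 2 and fell with 4. Bag3 fell with 3 crRNAs, most with Map2 crRNA 1, where its 3 libraries averaged 47.7 ± 2.19 FPKM, against 63.5 ± 1.58 with NT. No library overlapped, and the fold change was -0.41 ± 0.053 (limma adjusted p = 9.82e-07). Of the HSP90 genes, Hsp90ab1 rose with 3 crRNAs by 0.11 or less on the log2 scale and the inducible Hsp90aa1 rose with 2 and fell with 1; after rescaling each rose with 1. The mitochondrial chaperonins Hspd1 (HSP60) and Hspe1 (HSP10) rose with 3 and 2. After rescaling Hspe1 rose with 1 and Hspd1 with none.

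The crRNAs also differed among themselves, in a comparison of their means that leaves out those of the NT libraries (which still entered the estimate of the spread). In an F test over the 7 crRNA groups, 25 of 34 members passed (limma, adjusted p under 0.05), where 43.5% of all genes did. The highest F, 120 (limma adjusted p = 2.68e-13), was that of Hspa5, with group means between 628 FPKM for Rbfox3 crRNA 3 and 991 FPKM for Map2 crRNA 1, a ratio of 1.58. Hsph1 came next (F = 70.1, limma adjusted p = 2.45e-11), and the ratio of highest to lowest group mean was 1.49 for Sel1l, 1.41 for Bag3 and 1.35 for Xbp1. The members that did not pass included Dnajb1 and Hspa4l, whose highest and lowest group means had ratios of 1.09 and 1.10.

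The same transcript was targeted by a pair of crRNAs at 3 genes of the WT set, so a pair could be compared at the same target. Between Map2 crRNAs 3 and 1, 11 members were higher and 7 lower with crRNA 3, where 21.3% of all genes were higher and 14.5% lower, and with rescaled FPKM the split was 7 and 10. Hspa5 was at 710, 714 and 779 FPKM with Map2 crRNA 3, against 976, 963 and 1034 with crRNA 1, a fold change of -0.43 ± 0.034 (limma adjusted p = 1.13e-09). Sel1l (-0.55 ± 0.071, limma adjusted p = 2.15e-06) and Herpud1 (-0.40 ± 0.043, limma adjusted p = 1.77e-07) were lower too. Bag3 (0.43 ± 0.053), Hsph1 (0.41 ± 0.031) and Xbp1 (0.39 ± 0.046) were higher, with limma adjusted p = 1.31e-06, 1.03e-09 and 7.74e-07. These 6 genes were picked from the members whose libraries did not overlap within the pair. The target was at 1.00 ± 0.106 FPKM with crRNA 3 and at 2.14 ± 0.0528 with crRNA 1.

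Mapt crRNAs 6 and 4 differed in 9 members, 4 higher and 5 lower with crRNA 6, where 4.48% of all genes were higher and 2.98% lower, and with rescaled FPKM the split was 2 and 7. Hspa5 was at 635, 626 and 652 FPKM with Mapt crRNA 6, against 799, 816 and 857 with crRNA 4, all lower, with a fold change of -0.37 ± 0.034 (limma adjusted p = 3.34e-07). Pdia6 (-0.20) and Hspa8 (-0.17) were lower as well, and Hsph1 (0.24), Bag3 (0.24) and Hspd1 (0.13) were higher (limma adjusted p = 0.0021, 0.0183, 3.89e-05, 0.00812 and 0.0162 in that order). The count was 4 or 5 without Mapt crRNA 4 replicate 1 or 3 or Mapt crRNA 6 replicate 2 or 3. Sik3 crRNAs 8 and 1 differed in 4 members, 2 higher and 2 lower with crRNA 8, where 1.52% of all genes were higher and 1.09% lower. With crRNA 8, Hspe1 (218 ± 6.93 against 174 ± 10.7 FPKM) and Dnaja1, a J-domain partner of HSP70 (12.4 ± 0.0684 against 10.1 ± 0.724 FPKM), were higher, while Pdia6 and Hyou1 were lower by 0.14 and 0.13 on the log2 scale. This count was 0 or 1 without replicate 2 or 3 of Sik3 crRNA 1 or any 1 replicate of Sik3 crRNA 8, and with rescaled FPKM 2 were higher and 1 lower. In this pair longer genes had lower fold changes (Spearman's rho with exon length -0.318 over 11466 genes). With that trend removed 3 members were higher and 4 lower, and Hspe1 still passed (0.25) but Hyou1 did not (-0.092).

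**Figure D3:**
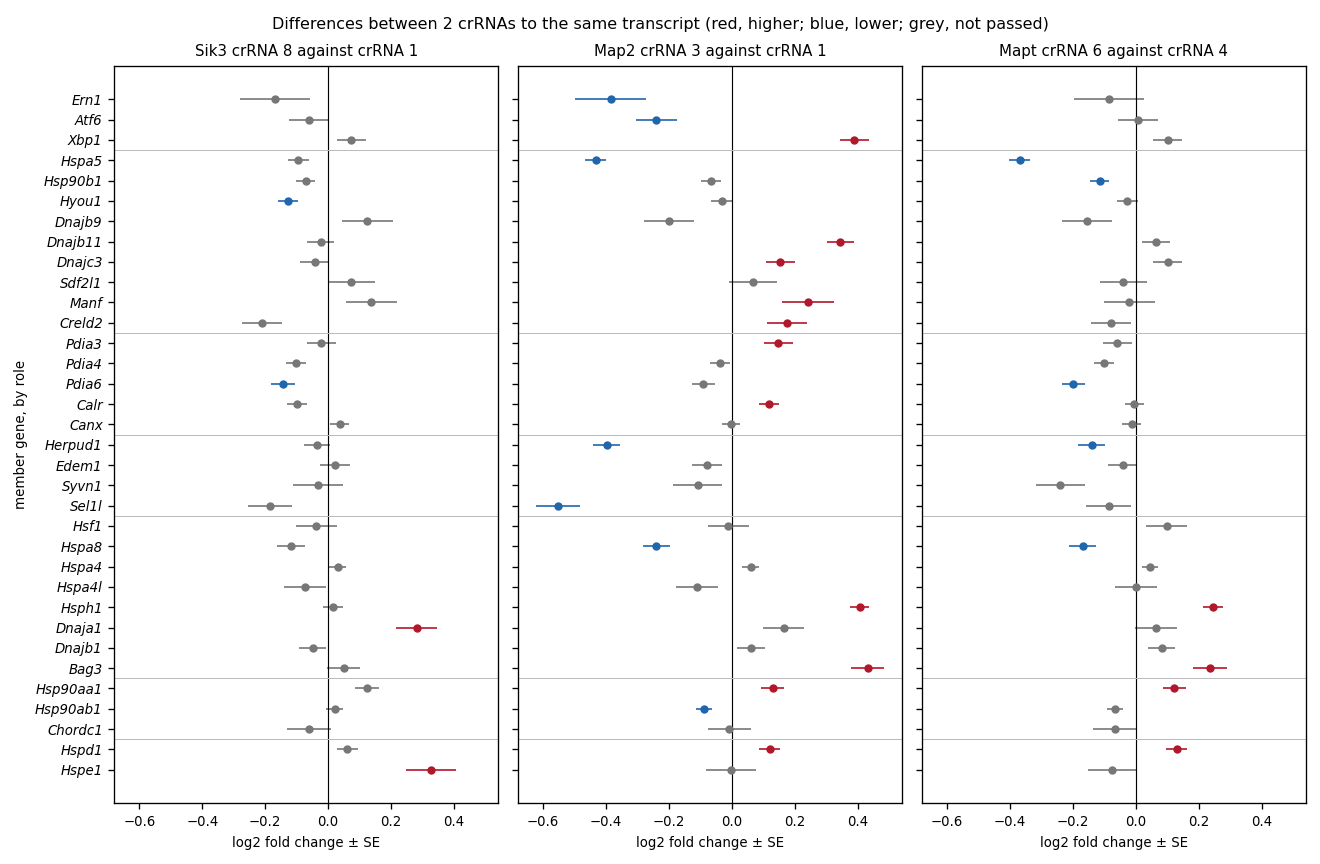
Log2 fold change with its SE (horizontal axis) of the 34 members between 2 crRNAs to the same transcript: Sik3 8 against 1, Map2 3 against 1 and Mapt 6 against 4 (red, higher; blue, lower; grey, not past the test). Hspa5 lies at -0.43 for Map2 and at -0.37 for Mapt, and Hsph1 at 0.41 and 0.24.

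Rbfox3 crRNA 5, with its own NT libraries, had 10 members higher and 2 lower, where 12.6% of all genes rose and 13.1% fell. All libraries of this set belong to 1 library series. Xbp1 was at 82.5, 85.7 and 81.2 FPKM with the crRNA, against 63.2, 60.0 and 62.1 with NT. All 3 were higher, and the fold change was 0.43 ± 0.046 (limma adjusted p = 3.34e-07). Hsph1 (92.7, 89.4 and 90.7 FPKM, against 72.7, 74.7 and 70.9) rose by 0.32 ± 0.031 (limma adjusted p = 7.68e-08). Manf (306, 324 and 309 FPKM, against 272, 232 and 237) rose by 0.34 ± 0.082 (limma adjusted p = 0.0031). These 3 genes were picked from the members whose crRNA libraries lay wholly above NT. Atf6 fell, to 18.6, 18.1 and 19.0 FPKM, against 22.2, 25.1 and 24.1 with NT, with a fold change of -0.35 (limma adjusted p = 0.000247). Calr, the other member that fell, was at 678, 694 and 659 FPKM, against 739, 699 and 716, close together, with a fold change of -0.085 (limma adjusted p = 0.0443). This call was lost in 4 of the fits that leave out 1 library. It was also lost without the series term and with the libraries of the comparison alone (limma adjusted p = 0.113 and 0.261). Hspa5 (581, 583 and 585 FPKM, against 590, 525 and 536) overlapped and did not pass, and neither did Dnajb11 or Hspa8.

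The NT libraries of both sets, which hold no targeting crRNA, also differed. In the NT of the N set, 5 members were higher and 13 lower than in the NT of the WT set, where 26.5% of all genes were higher and 19.9% lower, and with the length trend removed the split was 8 and 13. Fitted on these 6 libraries alone, 1 was higher and 3 lower. Xbp1 was at 63.2, 60.0 and 62.1 FPKM in the NT of the N set, against 45.7, 44.5 and 42.4 in the NT of the WT set, all higher, with a difference of 0.48 ± 0.049 (limma adjusted p = 4.48e-08). Pdia6 was at 168, 155 and 166 FPKM, against 235, 220 and 237, all lower, with a difference of -0.52 ± 0.040 (limma adjusted p = 3.92e-10). Sdf2l1 (57.1 ± 5.44 against 79.5 ± 6.45 FPKM) and Pdia4 (69.2, 66.5 and 70.4 against 88.3, 88.7 and 88.5 FPKM) were lower too, and Hyou1 (150, 164 and 158 against 131, 136 and 132 FPKM) was higher. Beside them, the largest difference of a member between a crRNA and NT of the WT set was 0.60. The N set holds no library of the LDK series, to which replicates 1 and 2 of the WT set belong, so set and series partly coincide. With the 6 NT libraries joined as 1 control, Xbp1 no longer passed with Rbfox3 crRNA 3 (a fold change of 0.062 in place of 0.27) or with Mapt crRNA 6 (0.16 in place of 0.37).

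Both Rbfox3 crRNAs could be set side by side only through the difference of their effects, each against its own NT. This difference passed for 7 of 34 members, 5 higher and 2 lower for crRNA 5, where 1.95% of all genes were higher and 3.57% lower, and for 5 and 1 with rescaled FPKM. Manf had the largest difference among these members, and it rose with crRNA 5 as given above. With crRNA 3 it was at 277, 269 and 262 FPKM, against 292, 285 and 296, all lower but not past the test. Its difference of effects was lost in 4 of the fits that leave out 1 library, while that of Calr (0.26) passed in each of them. Calr, Dnajb11, Dnajc3 and Canx were the others with the higher effect for crRNA 5, and Sel1l and Hspa8 had the lower. The count was 12 without NT replicate 3 of the N set, and 2 to 4 without NT replicate 4 or 5 of that set, any 1 NT replicate of the WT set, Rbfox3 crRNA 3 replicate 1 or 3, or Rbfox3 crRNA 5 replicate 1 or 2.

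In the tdTomato line, with lower depth, 7 of 35 members rose and 1 fell with tdTomato crRNA 4, where 6.46% of all 11853 genes tested rose and 4.28% fell. With crRNA 7, 7 rose and 4 fell, where 6.72% of all genes rose and 11.3% fell. Both crRNAs share their 3 NT libraries. With FPKM rescaled by median ratios, which moved the median of all genes by 0.12 on the log2 scale for crRNA 7, 11 rose and 2 fell with crRNA 7; with the length trend removed 3 rose and 1 fell with each. Leaving out any 1 library of the comparison left 3 to 5 members with crRNA 4 (3 without NT replicate 3) and 4 to 7 with crRNA 7 (4 without NT replicate 3). Summed over 13 markers of other cell types, expression was 25.6 to 28.6 FPKM with crRNA 4 and 19.2 to 22.0 with crRNA 7, against 22.2 to 23.8 with NT, and the part of this difference in the results was not tested.

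Manf rose with both crRNAs of this line. It was at 317, 421 and 385 FPKM with crRNA 4 and at 325, 417 and 416 with crRNA 7, against 223, 289 and 282 with NT. Replicate 1, of another library series than replicates 2 and 3, was the lowest in each group, and all 6 crRNA libraries lay above all NT libraries, as for 4.99% of all genes. The fold change was 0.50 ± 0.054 (limma adjusted p = 0.000646) for crRNA 4 and 0.54 ± 0.054 (limma adjusted p = 0.000489) for crRNA 7, and it was 0.50 and 0.54 with the length trend removed. Without the library series as a term, Manf did not pass (limma adjusted p = 0.113 and 0.0739), and 1 member passed with crRNA 4 and 2 with crRNA 7. In the WT set Manf passed with 1 crRNA, in the opposite direction, and the tables were not tested against each other. Other ER members that rose were Xbp1 with crRNA 4 (133, 151 and 144 FPKM, against 119, 116 and 102 with NT; 0.34 ± 0.080, limma adjusted p = 0.0247), Herpud1 with crRNA 4 (64.5, 75.4 and 78.6 against 44.4, 60.0 and 55.5 FPKM; 0.45 ± 0.093, limma adjusted p = 0.0138) and Pdia3 with crRNA 7 (384, 426 and 433 against 339, 363 and 363 FPKM; 0.22, limma adjusted p = 0.0159). Hspa5 and Sdf2l1 rose with both, though their libraries overlapped those of NT: Hspa5 was at 527, 659 and 647 FPKM with crRNA 4 and 517, 661 and 622 with crRNA 7, against 451, 573 and 561. With the length trend removed, Xbp1 (0.32) and Herpud1 (0.34) with crRNA 4 and Pdia3 (0.18) with crRNA 7 did not pass. Nor did any of these calls pass without the series term or with a constant prior variance.

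Members that fell in the tdTomato line were Atf6, Sel1l, Chordc1 and Hyou1. Atf6 was at 8.65, 13.6 and 13.7 FPKM with crRNA 7, against 18.5, 22.7 and 21.6 with NT, all lower, with a fold change of -0.80 ± 0.119 (limma adjusted p = 0.00321), the largest of any member in any comparison. With crRNA 4 it was at 14.5, 17.2 and 16.2 FPKM and did not pass. Sel1l, which rose with 6 crRNAs in the WT set, fell with crRNA 7, to 5.56, 7.25 and 6.13 FPKM, against 7.72, 10.7 and 12.7, with a fold change of -0.65 ± 0.141 (limma adjusted p = 0.0137), and with the length trend removed it did not pass (-0.48). Chordc1, an HSP90 co-chaperone with the heat shock elements shown above, was at 27.0, 30.9 and 32.8 FPKM with crRNA 4 and 37.1, 36.4 and 36.6 with crRNA 7, against 51.8, 46.2 and 45.6 with NT. All 6 crRNA libraries were lower, as for 9.75% of all genes, with fold changes of -0.65 ± 0.098 (limma adjusted p = 0.00324) and -0.38 ± 0.098 (limma adjusted p = 0.0281), of which that with crRNA 7 did not pass with the length trend removed (-0.23), with rescaled FPKM (-0.24), without the library series as a term, with the LDK libraries alone or without any 1 of its 6 libraries. In the WT set Chordc1 passed with no crRNA. Hyou1 fell with crRNA 7, by 0.21 on the log2 scale (137 ± 24.0 against 158 ± 21.8 FPKM, limma adjusted p = 0.0379), with libraries that overlapped. Calr, Hspa8 and Dnajb1, called with all 7 crRNAs there, passed with neither tdTomato crRNA. Dnajb11, which fell with all 7, rose with tdTomato crRNA 4 (67.4 ± 8.81 against 54.9 ± 10.4 FPKM; 0.30, limma adjusted p = 0.0419), again with an overlap.

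The mitochondrial chaperonin Hspe1 was at 268, 262 and 278 FPKM with crRNA 4 and at 283, 303 and 316 with crRNA 7, against 221, 226 and 245 with NT. All 6 were higher, and the fold change with crRNA 7 was 0.38 ± 0.061 (limma adjusted p = 0.00421). In this line, longer genes had lower fold changes: Spearman's rho with exon length was -0.43 for crRNA 4 and -0.387 for crRNA 7 over 11766 genes, which share libraries and are not independent. In the WT set rho was -0.318 for Sik3 crRNA 8 against 1 and -0.257 for Map2 crRNA 3 against 1. With the length trend removed, the fold change of Hspe1 with crRNA 7 was 0.13 and did not pass. Hspa1a, at 6.59, 6.47 and 6.18 FPKM with crRNA 4 and 11.4, 7.47 and 8.16 with crRNA 7, against 7.98, 6.82 and 6.54, did not pass. Between crRNAs 7 and 4, 0 of 35 members passed in limma, where 0.0506% of all genes passed. At an unadjusted p under 0.05 there were 7 members, but no share of all genes at that threshold is given to set beside them. In the mean of both crRNAs against NT, 8 members rose and 4 fell, where 8.32% of all genes rose and 11.3% fell, and 12 rose and 2 fell with rescaled FPKM. Without NT replicate 2 or 3 this count of 12 was 6 or 5.

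**Figure D4:**
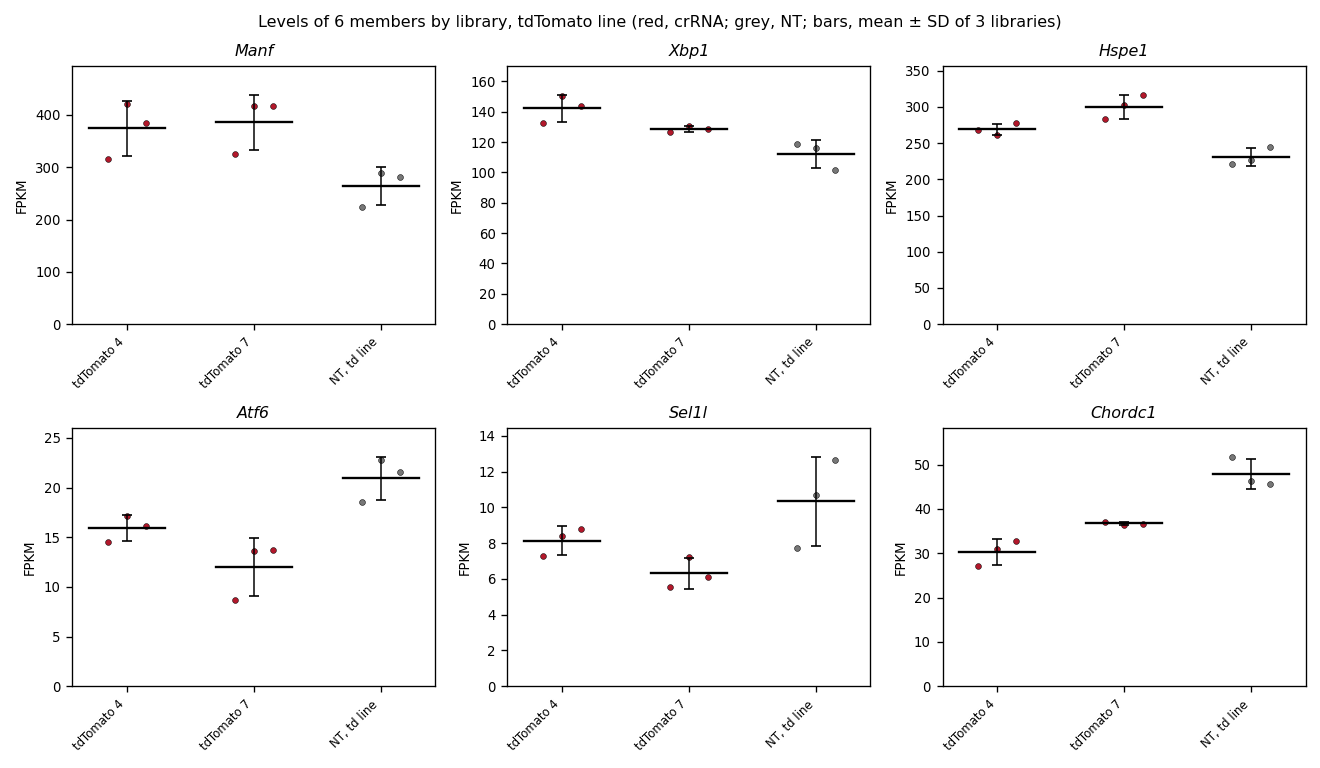
FPKM of 6 members in each library of the tdTomato line (points; red, crRNA; grey, NT), with the mean and SD of 3 libraries as bars and axes that start at 0; in each group the left point is replicate 1, of another library series than the rest. Manf and Hspe1 are higher in all 6 crRNA libraries than in NT, and Chordc1 and Atf6 are lower in all 6.

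Other folding genes, outside the 37, also moved in both directions. Averaged over the 7 crRNAs that share the WT set, 19 of 62 further genes of ER folding and quality control rose and 15 fell, 10 of 48 further cytosolic chaperone and HSF1-related genes rose and 14 fell, and 3 of 13 further mitochondrial chaperones and proteases rose and 6 fell, beside the 28.2% and 21.7% of all genes given above. Mbtps2 (site-2 protease), which frees ATF6 from the membrane, averaged 18.8 ± 1.25 FPKM in the 21 crRNA libraries, against 12.6 ± 1.67 in the 3 NT libraries, a fold change of 0.57 (limma adjusted p = 1.62e-09). Ero1l, the oxidase that recharges disulfide isomerases, averaged 156 ± 12.8 against 115 ± 4.98 FPKM (0.44, limma adjusted p = 2.08e-12). Cnpy2 (62.0 ± 8.56 against 91.7 ± 6.71 FPKM) and Ube2g2, a ubiquitin-conjugating enzyme of ER-associated degradation (77.4 ± 3.14 against 102 ± 3.26 FPKM), fell, by 0.57 and 0.39 on the log2 scale. Of the cytosolic and mitochondrial genes, Hspbp1, an HSP70 exchange factor (28.8 ± 1.51 against 39.2 ± 2.34 FPKM), Grpel1, the exchange factor of mitochondrial HSP70 (23.8 ± 2.74 against 33.8 ± 2.19 FPKM), and the protease subunit Clpp (41.1 ± 6.12 against 56.9 ± 2.29 FPKM) fell. Ahsa2, a homologue of an HSP90 co-chaperone (17.1 ± 1.26 against 12.9 ± 0.758 FPKM), the mitochondrial protease Lonp1 (151 ± 10.3 against 135 ± 0.347 FPKM) and Clpx, the unfoldase partner of Clpp (16.3 ± 1.34 against 14.6 ± 0.931 FPKM), rose, by 0.39, 0.15 and 0.15 on the log2 scale in that order. In the mean of both tdTomato crRNAs, 7 of the 62 ER genes rose and 11 fell, 9 of the 48 cytosolic genes rose and 7 fell, and 1 of the 13 mitochondrial genes rose and 1 fell, where 8.32% of all genes rose and 11.3% fell. Sdf2 averaged 54.3 ± 3.65 FPKM in 6 crRNA libraries against 33.7 ± 6.68 in 3 NT libraries (0.69, limma adjusted p = 0.00199), and Selenos, which takes part in the export of misfolded proteins from the ER, 29.7 ± 3.54 against 45.1 ± 5.54 FPKM (-0.59, limma adjusted p = 0.000821).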

How the data were processed

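Poly(A) RNA of 39 libraries was sequenced, and the authors deposited FPKM values per gene in 2 tables, for 30 libraries of N2a cells and for 9 of the tdTomato line. According to the labels and methods, reads were trimmed with Trim Galore, aligned to mm10 with Subread and counted with featureCounts; for versions, annotation and strand, the sources used here give nothing. No counts were used, so depth was only estimated, from the smallest steps of low values (26.4 to 28.9% of them whole within 0.02 in the table of 30, 18.6 to 22.7% in the other). FPKM of a gene depends on all other genes of its library, so a shift of many genes moves each value.

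Groups came from the labels, and the library series (LDK, LDL or LDM) and the NT set from library names. Genes with a mean of at least 1 FPKM (11554 and 11853, targeted genes included) were fitted with limma 3.58.1 in R 4.3.3 (empirical Bayes with trend, 2-sided) on log2(FPKM + 0.5), with group and library series as terms, over all libraries of a table (19 and 5 residual degrees of freedom). Adjusted p-values are Benjamini-Hochberg over all genes tested, in 18 comparisons. On simulated data 73 of 100 genes changed by 0.5 and 96 of 100 changed by 1 on the log2 scale were recovered for Sik3 crRNA 1. For tdTomato crRNA 7, 0 and 33 of 100 were recovered. Unchanged genes that were called numbered 9 and 0 in that order. The simulated spread was taken around group means, so it held the series differences that the fit takes out. These shares therefore do not give the recovery of the fit on the real libraries.

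The 37 members, the other lists and the tests were chosen with earlier results of these data known. Statistics are given in full for up to 3 members in each direction per comparison, those with the largest fold change among members that passed and whose libraries did not overlap, and for up to 2 genes in each direction of each other list. For members named by this rule, the lack of overlap was a condition of being named and not a separate result. Other members are given by levels, calls or fold change, and which of these appear was chosen after their values were seen. Libraries matched by set, series and number in their names deviated together (r over 0.1 for all 3 pairs) in 7 of 14 comparisons of 2 groups. An example is 0.125 to 0.283 for Sik3 crRNA 1. Some of the others fell just short, for example 0.0994 to 0.351 for Map2 crRNA 1 and 0.0999 to 0.382 for Mapt crRNA 6. Only Rbfox3 crRNA 5, at -0.0807 to 0.114, held a negative r, and it was the only comparison within 1 library series. In the others a difference between series can by itself raise r. Libraries matched in this way can bear different replicate numbers, as do NT replicate 6 and crRNA replicate 3 of the WT set. No 2 libraries held identical values. Promoter windows and sequences are RefSeq's. Alternatives were other pseudocounts, filters, priors, controls and scalings, a replicate block and leaving out each library.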

Additional observations from a re-analysis of the deposited data

Results flagged for a closer look

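The effect of Rbfox3 crRNA 5 (against the NT of the N set) differed from that of Rbfox3 crRNA 3 (against the NT of the WT set) by a test of the difference itself in 7 of 34 members (limma). The difference of effects on the log2 scale was 0.46 for Manf (limma adjusted p = 0.0207), 0.26 for Calr (0.000734), 0.23 for Dnajc3 (0.0409), 0.22 for Dnajb11 (0.039), 0.15 for Canx (0.0323), -0.27 for Hspa8 (0.0107) and -0.34 for Sel1l (0.0442). Rbfox3 was near 0 FPKM in all 4 groups. The sets also differ in their NT libraries: Calr and Hspa8 were lower, and Dnajb11 higher, in the NT of the N set than in the NT of the WT set, so crRNA and set cannot be told apart here.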

How the results depend on the processing

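Of 214 counts of members recomputed under the alternatives, leave-one-out aside, 26 moved by over 1.5 times, and of 1046 values of the 92 named calls, 66 no longer passed and 0 reversed. Fitting only the libraries of a comparison gave 13 members for Sik3 crRNA 1 (23 in the main analysis), 8 for Rbfox3 crRNA 3 (16) and 5 for tdTomato crRNA 4 (8). It gave 0 for Sik3 crRNA 8 against 1 (4), 3 for the difference of Rbfox3 effects (7) and 4 for the NT of the N set against the NT of the WT set (18). In that fit of Sik3 crRNA 8 against 1, 11 members had an unadjusted p under 0.05, with no share of all genes given at that threshold. Without the series term the counts were 1 for tdTomato crRNA 4, 2 for crRNA 7 (11), 3 for their mean (12), 2 for Sik3 crRNA 8 against 1 and 4 for the Rbfox3 effects. With a constant prior variance they were 3, 5, 6, 2 and 4 in that order. With the length trend removed they were 4 for tdTomato crRNA 4, 4 for crRNA 7, 6 for their mean and 7 for Sik3 crRNA 8 against 1. Without a filter on low values they were 5 for tdTomato crRNA 4 and 2 for Sik3 crRNA 8 against 1. With the LDK libraries alone, an alternative chosen after seeing the data, they were 5 for tdTomato crRNA 4, 7 for crRNA 7, 2 for Sik3 crRNA 8 against 1 and 5 for Mapt crRNA 6 against 4 (9). The cause was not tested. Joining all 6 NT libraries could give no value for the comparison of the NT sets.

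Leaving out 1 library at a time gave 11 to 14 members for Mapt crRNA 4, 10 to 16 for Rbfox3 crRNA 3, 3 to 5 for tdTomato crRNA 4, 4 to 7 for crRNA 7, 5 to 12 for their mean, 0 to 4 for Sik3 crRNA 8 against 1, 4 to 6 for Mapt crRNA 6 against 4 and 2 to 12 for the Rbfox3 effects, and 0 of 651 values of named calls reversed. The replicate block in place of the series term changed none of the 92 named calls and moved no count by over 1.5 times: it gave 23 members for Sik3 crRNA 1 and 8 for tdTomato crRNA 7. Both depth and residual degrees of freedom were lower for the tdTomato line than for WT cells, and their parts in the smaller counts there cannot be told apart.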
